A study of Mus musculus with 26 samples.

Results

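Zscan4c, Tcstv1, Tcstv3 and Tmem92 are genes of the two-cell-like state, and their transcripts were followed here across 13 mouse cell lines. The genes were taken by symbol: every array probe that the platform's probe table names for one of them was used. This gave 4 of 16593 genes named on the array and 4 probes, 1 for each gene, of 23978 probes that name a gene and 25697 probes in all (Zscan4c, ILMN_3013659; Tcstv1, ILMN_2946986; Tcstv3, ILMN_2637059; Tmem92, ILMN_2866742). Total RNA of each line was hybridised to 2 technical arrays, a and b, 26 arrays in all. All lines carry the label OG2 as their strain background, OG2 being a mouse strain with a green fluorescent reporter driven by Pou5f1 (Oct4) sequences. The source cells were 2 lines of germline stem cells (GSC) and 1 of fibroblasts. Pluripotent derivatives were 4 lines of induced pluripotent stem cells obtained from GSCs (iPSC), 4 of germline-derived pluripotent stem cells (gPSC) and 1 iPSC line obtained from fibroblasts (Fib-iPSC), with 1 line of embryonic stem cells (ESC) for reference. The labels name no treatment, time, animal age or further allele, and they do not say which factors or which route were used, so that ESC, fibroblast and Fib-iPSC each stand for a single line. The lines are called independent in the design text, and the title asks about a memory of the source cell after reprogramming.

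The mouse embryo first transcribes its own genome on a large scale at the two-cell stage, and a set of genes is expressed there in a brief burst. In cultures of mouse ESC, a small and changing fraction of cells passes through a state in which part of this set is expressed again. Zscan4c encodes a SCAN domain zinc finger protein of the Zscan4 cluster, which acts in telomere maintenance in mouse ESC. Tcstv1 and Tcstv3 encode small related proteins named for their expression at the two-cell stage. Tmem92 encodes a predicted transmembrane protein whose transcript is used as a marker of the same state. The homeodomain factor Dux is a known activator of the program in mouse cells, and several chromatin repressors hold it down.

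The start regions of the genes the results turn on are shown because the genes moved together from line to line. Windows from 250 bases before to 50 bases after the annotated start were read from RefSeq (GRCm38.p6), which gave a window for 1 of the 4 genes, Zscan4c, and for 5 of the 10 genes with the most similar profiles, which are named further on. On both strands 4 strings were searched, chosen with the promoters in view: the motif known for mouse Dux in a form of 11 letters, its inner 9 letters GATTNAATC, the shorter form GATTNAAT and TATAAA. The 2 shorter forms of the Dux motif lie within the longer, so that their matches overlap, and TATAAA is separate from them. GATTNAATC occurred in 88 of 32851 windows (0.268%) and in 4 of the 5 windows of the similar genes. The window of Zscan4c held GATTNAAT (1.96% of all windows) in 2 places and TATAAA (13.6% of all windows). The full 11 letters occurred in 0.0335% of all windows and in none of those of Zscan4c and the similar genes. The 5 windows that held a match are printed here, and were picked for it, with GATTNAATC, or for Zscan4c both matches to GATTNAAT, in capitals. All lie on the plus strand, at chr7:11005495-11005794 for Zscan4c, chr4:143567217-143567516 for Pramel20, chr4:143511093-143511392 for Gm13043, chr4:144357714-144358013 for Pramel31 and chr13:120262845-120263144 for AF067061.
Zscan4c: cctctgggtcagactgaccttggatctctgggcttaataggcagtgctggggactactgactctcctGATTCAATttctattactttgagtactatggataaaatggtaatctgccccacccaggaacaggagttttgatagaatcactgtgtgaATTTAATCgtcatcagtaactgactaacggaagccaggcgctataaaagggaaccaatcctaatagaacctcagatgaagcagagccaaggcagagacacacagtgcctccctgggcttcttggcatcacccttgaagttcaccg
Pramel20: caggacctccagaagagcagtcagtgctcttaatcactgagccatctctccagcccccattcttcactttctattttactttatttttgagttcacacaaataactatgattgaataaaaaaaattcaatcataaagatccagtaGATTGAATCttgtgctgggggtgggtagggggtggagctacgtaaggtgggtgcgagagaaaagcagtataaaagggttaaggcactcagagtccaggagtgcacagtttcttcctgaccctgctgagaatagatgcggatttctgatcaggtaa
Gm13043: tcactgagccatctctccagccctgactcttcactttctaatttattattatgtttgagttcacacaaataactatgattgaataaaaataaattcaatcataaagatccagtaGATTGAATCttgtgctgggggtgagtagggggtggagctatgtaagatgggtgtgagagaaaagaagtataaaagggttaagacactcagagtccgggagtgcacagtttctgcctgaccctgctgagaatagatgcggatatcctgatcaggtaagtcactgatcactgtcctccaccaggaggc
Pramel31: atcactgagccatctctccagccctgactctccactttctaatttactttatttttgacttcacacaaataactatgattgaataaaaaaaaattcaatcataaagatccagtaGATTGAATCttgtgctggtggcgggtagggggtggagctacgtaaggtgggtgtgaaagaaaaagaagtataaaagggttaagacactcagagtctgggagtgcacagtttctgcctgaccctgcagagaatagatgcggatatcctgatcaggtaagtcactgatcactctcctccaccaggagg
AF067061: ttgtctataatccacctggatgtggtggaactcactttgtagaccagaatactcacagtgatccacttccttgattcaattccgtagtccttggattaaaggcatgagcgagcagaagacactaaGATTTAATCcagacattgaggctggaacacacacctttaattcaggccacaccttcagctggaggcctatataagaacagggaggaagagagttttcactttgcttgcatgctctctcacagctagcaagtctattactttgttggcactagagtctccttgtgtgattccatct
The capitals begin at base -183 from the start in Zscan4c, -105 in Pramel20, -136 in Gm13043 and Pramel31 and -125 in AF067061. Pramel20, Gm13043 and Pramel31 are similar copies on 1 chromosome and do not count as independent. The Zscan4c window was 99.3% identical to that of Zscan4f over 277 aligned bases, 97.2% to Zscan4d over 289 and 95.3% to Zscan4b over 277. Probe sequences were not used here, so it is uncertain which copies of a family a probe reads. A match of letters describes the window and is not a measured binding site.

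Per array, 12097 to 13808 probes were detected, which here means a detection p-value under 0.05, at median intensities of 89.17 to 143.2. All levels are log2 values after background correction and quantile normalization, as the mean of a line's 2 arrays, and the lowest level that counted as detected ran from 4.56 to 4.81. No level of one probe can be set against that of another. The labelled cell types were checked against their markers: 12 of 12 germline markers were detected in both GSC lines, and 6 or 7 of 7 pluripotency markers in each of the 10 pluripotent lines. Detection alone does not separate the types, since 4 of the 7 pluripotency markers were detected on all GSC arrays and 4 of the 12 germline markers on all iPSC arrays. By level, 10 of 12 germline markers were lower in iPSC and in gPSC than in GSC, and 7 of 7 pluripotency markers in iPSC and 6 of 7 in gPSC were higher (limma adjusted p under 0.05, at least 2-fold). Over all genes tested, 11.7% were lower in iPSC and 11.5% in gPSC, and 11.1% and 10.2% higher. These lists were chosen with earlier results of these data known. Array a was brighter in 4 of the groups (GSC, gPSC, ESC and Fib-iPSC), at medians of 100.1 to 102.9, against 89.17 to 93.96 on their b arrays and on both arrays of the iPSC lines, so values from the b arrays alone are given where the iPSC lines are compared.

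The 4 genes split the lines into those without and those with a detected transcript. None of the 4 was detected on any of the 4 GSC arrays or the 2 fibroblast arrays, and each was detected on all 20 arrays of the pluripotent lines. Zscan4c stood at 4.28 and 4.33 in GSC 1 and 2 and at 4.38 in fibroblast, below the detection limit. It stood at 10.67, 10.77, 9.69 and 8.44 in iPSC 1 to 4, at 9.40, 7.49, 9.90 and 9.35 in gPSC 1 to 4, at 7.76 in ESC and at 8.95 in Fib-iPSC. The highest lines of Zscan4c were thus iPSC 2 and iPSC 1 and the lowest pluripotent lines gPSC 2 and ESC, with the iPSC and gPSC lines overlapping.

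Tcstv1 stood at 4.34 and 4.31 in GSC 1 and 2 and 4.31 in fibroblast, all undetected. Its level was 8.59, 8.40, 8.63 and 7.21 in iPSC 1 to 4, 7.28, 6.07, 8.12 and 7.18 in gPSC 1 to 4, 5.74 in ESC and 6.87 in Fib-iPSC. In Tcstv1, 3 iPSC lines lay above every gPSC line, while iPSC 4 lay within the gPSC range. Tcstv3 stood at 4.32 and 4.27 in GSC 1 and 2 and 4.33 in fibroblast, again undetected. Its level was 9.16, 8.96, 9.23 and 7.65 in iPSC 1 to 4, 7.82, 6.72, 8.76 and 7.73 in gPSC 1 to 4, 6.79 in ESC and 7.40 in Fib-iPSC. The order was close to that of Tcstv1, with iPSC 3 first, but gPSC 2 rather than ESC was last.

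Tmem92 was undetected at 4.33 and 4.20 in GSC 1 and 2 and 4.29 in fibroblast. It stood at 7.87, 7.82, 7.47 and 6.39 in iPSC 1 to 4, at 5.73, 5.42, 7.36 and 6.18 in gPSC 1 to 4, at 5.09 in ESC and at 5.96 in Fib-iPSC. Its lowest pluripotent levels, in ESC and gPSC 2, were near the detection limit, with detection p-values up to 0.005013.

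**Figure D1:**
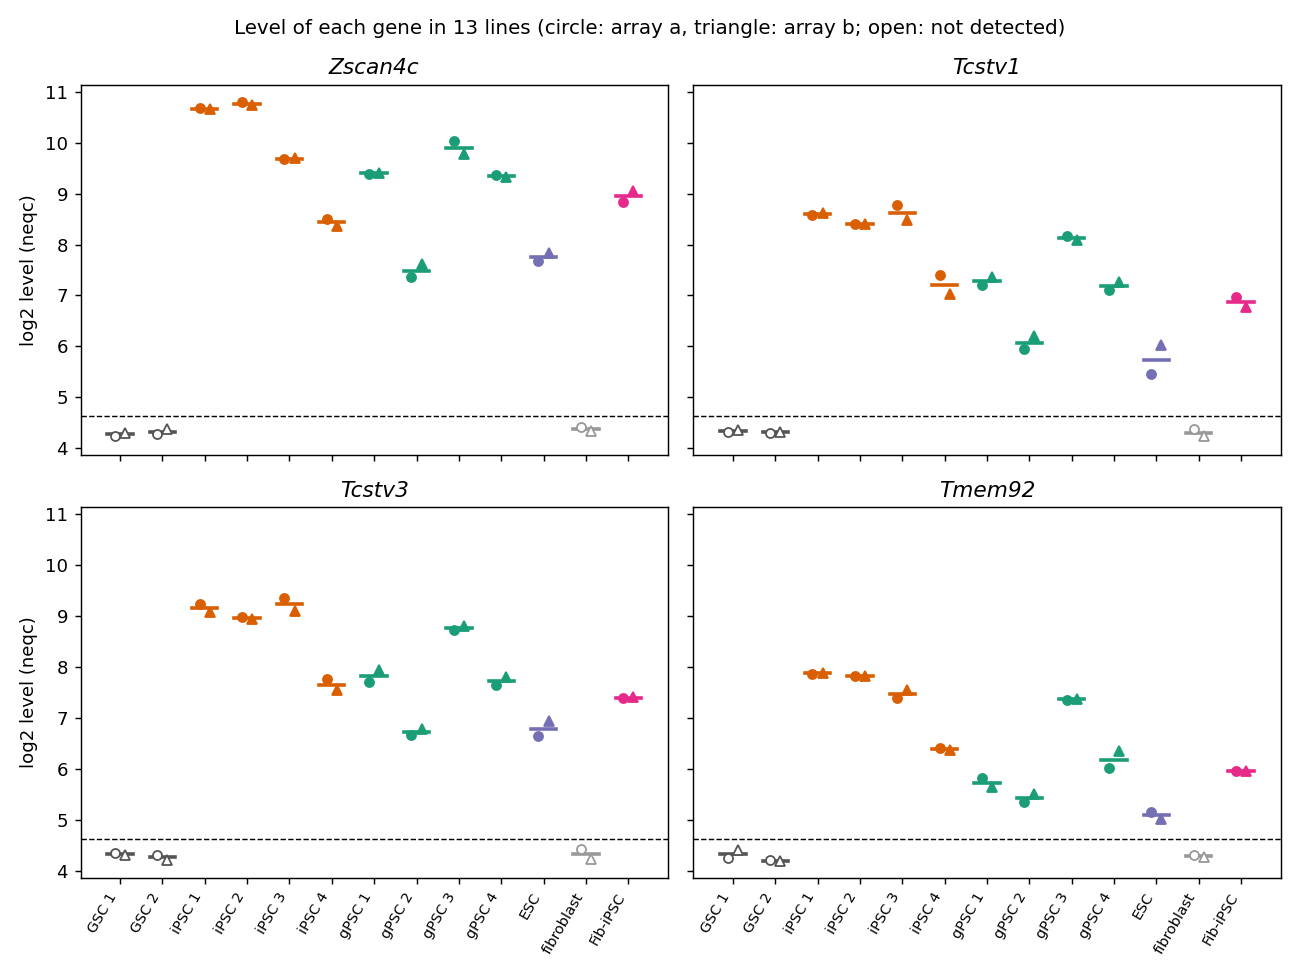
Levels (log2, vertical axis) of Zscan4c, Tcstv1, Tcstv3 and Tmem92 in the 13 lines (horizontal axis), 1 panel per gene, with circles for a arrays, triangles for b arrays, open symbols for undetected values and a dashed line at the median detection floor. All 6 GSC and fibroblast arrays are open symbols at the floor or below it, and all 20 arrays of pluripotent lines are filled above it.

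In the iPSC lines all 4 genes were higher than in the GSC lines, the cell type they were made from. Zscan4c was at least 39.0-fold higher, with a log2 difference of 5.59 ± 0.75 (SE, 4 lines against 2; limma adjusted p = 0.000324). Tcstv3 was at least 17.7-fold higher (4.46 ± 0.55, limma adjusted p = 0.000208) and Tcstv1 at least 12.1-fold (3.88 ± 0.54, limma adjusted p = 0.00038). Tmem92 was at least 6.88-fold higher (3.12 ± 0.55, limma adjusted p = 0.00145). Folds are lower bounds because the GSC values are not above background, and each was taken against the detection floor of the GSC arrays. They are bounds for this processing only. Without background correction the log2 differences were 3.55 for Zscan4c, 2.06 for Tcstv1, 2.53 for Tcstv3 and 1.51 for Tmem92. With the authors' values they were 8.12, 6.22, 6.98 and 5.70 in the same order. All 4 calls held in both. In this comparison limma called 22.8% of the 10660 genes tested at an adjusted p under 0.05 with at least a 2-fold difference, and 11.1% as higher in iPSC. The 4 genes, undetected in GSC, passed the detection filter through other lines and could hardly be called lower. Their calls are therefore not weighed against these shares. On the b arrays alone the differences were 5.52 for Zscan4c, 3.79 for Tcstv1, 4.40 for Tcstv3 and 3.10 for Tmem92. Every iPSC line exceeded both GSC lines in all 4 genes. These are bulk RNA samples, in which a larger share of cells in the two-cell-like state and more RNA per such cell cannot be told apart.

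In the gPSC lines the same 4 genes were also higher than in GSC. Zscan4c was at least 21.5-fold higher (log2 difference 4.73 ± 0.75, SE, 4 lines against 2; limma adjusted p = 0.000875). Tcstv3 was at least 8.88-fold higher (3.46 ± 0.55, limma adjusted p = 0.00092) and Tcstv1 at least 5.89-fold (2.84 ± 0.54, limma adjusted p = 0.00232). Tmem92 was at least 2.96-fold higher (1.91 ± 0.55, limma adjusted p = 0.0194). These bounds too hold for this processing only. Without background correction the log2 differences were 2.79 for Zscan4c, 1.31 for Tcstv1 and 1.75 for Tcstv3, and with the authors' values 7.22, 5.02 and 5.90. limma called 21.6% of all genes in this comparison, 10.2% higher in gPSC. Here too the 4 genes could hardly be called lower, and their calls are not weighed against these shares. The call of Tmem92 ended without background correction (0.80, limma adjusted p = 0.0889), with an offset of 50 (1.03, limma adjusted p = 0.0827), with GSC values raised to the floor (1.57, limma adjusted p = 0.0549) and without GSC 1 or GSC 2 (limma adjusted p = 0.0902 and 0.109). The iPSC and gPSC comparisons share the 2 GSC lines.

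In iPSC against gPSC no gene passed the test, these 4 included. The means were higher in iPSC for all 4: by 0.86 for Zscan4c (95% interval -0.53 to 2.24), 1.04 for Tcstv1 (0.06 to 2.03), 0.99 for Tcstv3 (-0.03 to 2.01) and 1.22 for Tmem92 (0.21 to 2.22). limma adjusted p was 0.647 for Zscan4c and 0.627 for the others, 4 lines against 4. Of 10660 genes 0% were called, 830 had an unadjusted p under 0.05, and 3 were called with all arrays and the line as a random block. The groups overlapped in each gene, since gPSC 3 exceeded iPSC 4. The intervals leave room for differences of up to 2.01 to 2.24 on the log2 scale, so the data do not show that the groups are alike. Without gPSC 2 the difference of Zscan4c was 0.34 and without iPSC 4 it was 1.34. On the b arrays alone the differences were 0.83 for Zscan4c, 0.91 for Tcstv1, 0.83 for Tcstv3 and 1.19 for Tmem92.

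The ESC line stood low among the pluripotent lines for all 4 genes. The iPSC means exceeded ESC by 2.13 ± 0.97 in Zscan4c (limma adjusted p = 0.945), 2.47 ± 0.69 in Tcstv1 (0.533), 1.96 ± 0.72 in Tcstv3 (0.754) and 2.30 ± 0.71 in Tmem92 (0.617), 4 lines against 1. ESC is 1 line with no spread of its own, so these tests and those of gPSC and GSC against ESC take its spread from the other groups. None passed the test, which called 0.225% of all genes. With all arrays and the line as a random block, Tcstv1 and Tmem92 passed. That fit draws on the technical arrays, with 1 correlation of 0.777 within lines for all genes, and it called more genes in all. ESC remains 1 line in it, so nothing is read from these 2 calls. Every iPSC line was above ESC in each of the 4 genes. On the b arrays alone the differences were 2.04 for Zscan4c, 2.10 for Tcstv1, 1.72 for Tcstv3 and 2.39 for Tmem92.

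The gPSC means exceeded ESC by less: 1.28 in Zscan4c, 1.42 in Tcstv1, 0.97 in Tcstv3 and 1.08 in Tmem92 (limma adjusted p 0.88 to 0.968). None passed the test, which called 0.244% of genes, and gPSC 2 lay below ESC in Zscan4c and Tcstv3. The ESC line enters both comparisons.

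The GSC lines were lower than the single ESC line in Zscan4c (at least 8.88-fold, log2 difference -3.45 ± 1.06, limma adjusted p = 0.0362, 2 lines against 1) and in Tcstv3 (at least 4.55-fold, -2.50 ± 0.78, limma adjusted p = 0.0393). Tcstv1 (-1.42, limma adjusted p = 0.2) and Tmem92 (-0.82, limma adjusted p = 0.481) did not pass. limma called 20.5% of genes here, 10% lower in GSC. Both calls ended without GSC 1 or without GSC 2 and without gPSC 4, and that of Tcstv3 without iPSC 1 or iPSC 2. They also ended without background correction (log2 differences -1.71 in Zscan4c and -1.06 in Tcstv3) and with an offset of 50 (-2.22 and -1.43). The same held with no detection filter and with values raised to the floor (-3.15 and -2.18). On the a arrays the call of Tcstv3 ended. With the authors' values (-5.86 and -4.79) both calls held. The folds are bounds for this processing only. Undetected in GSC, these genes could hardly be called higher there.

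Fibroblasts and the iPSC line made from them showed the same split, with 1 line each and no test. In Fib-iPSC, Zscan4c was at least 17.8-fold, Tcstv1 at least 4.22-fold, Tcstv3 at least 6.08-fold and Tmem92 at least 2.24-fold higher than in fibroblast. The Fib-iPSC line lay above ESC by 1.19 in Zscan4c, 1.13 in Tcstv1, 0.61 in Tcstv3 and 0.87 in Tmem92. It was 7th or 8th of the 10 pluripotent lines in every gene.

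**Figure D2:**
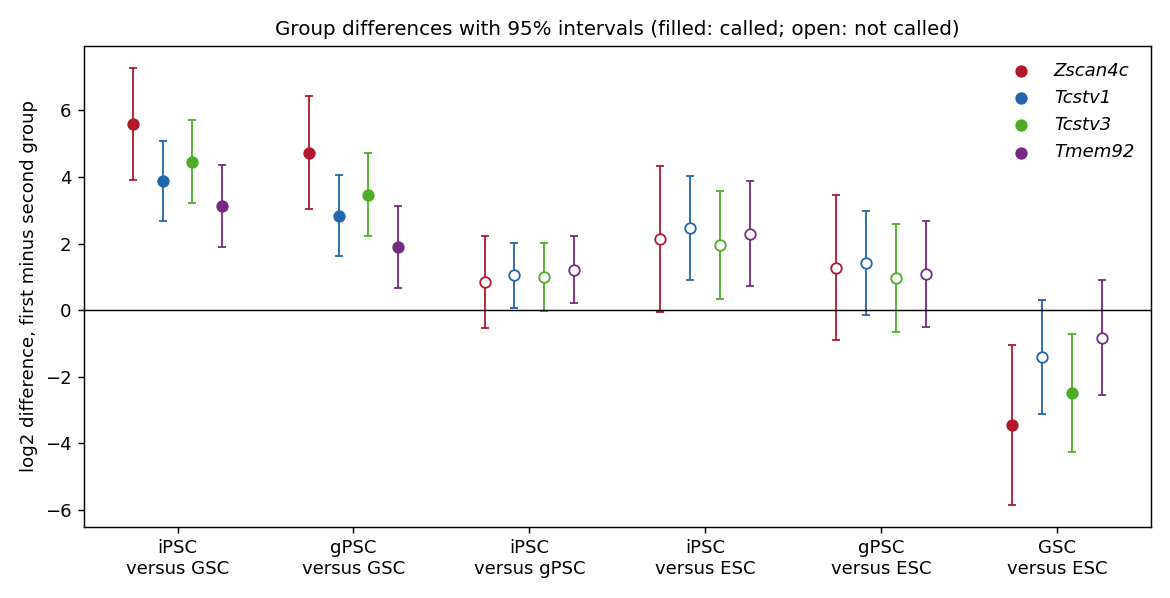
Log2 differences of the 4 genes (vertical axis, with 95% intervals) in 6 comparisons (horizontal axis), filled where limma called the gene (adjusted p under 0.05 and at least 2-fold). All 4 genes are called for iPSC and for gPSC against GSC, and none for iPSC against gPSC or either against ESC. The GSC values are undetected, so a call of lower than GSC was hardly possible.

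The 4 genes differed between lines of one kind. Over the 10 pluripotent lines Zscan4c ranged 9.71-fold, from gPSC 2 to iPSC 2. Tcstv1 ranged 7.38-fold (ESC to iPSC 3), Tmem92 6.88-fold (ESC to iPSC 1) and Tcstv3 5.69-fold (gPSC 2 to iPSC 3). The SD over the 4 iPSC lines was 1.08 for Zscan4c, 0.67 for Tcstv1, 0.74 for Tcstv3 and 0.69 for Tmem92. Over the 4 gPSC lines it was 1.06, 0.84, 0.83 and 0.85 in the same order. As a description, these SDs were 3.58 to 10.3 times the SD between a line's arrays, which are technical, and 95% to 99% of all genes tested had a smaller SD within the same group. 1 line in each group carried much of this spread: the median SD of the 4 genes over the iPSC lines was 0.71, and 0.18 without iPSC 4, and over the gPSC lines it was 0.85, and 0.55 without gPSC 2.

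Some neighbours in the order of levels could not be separated by their arrays. For Tcstv1, iPSC 3 and iPSC 1 overlapped, as did gPSC 1, iPSC 4 and gPSC 4, and gPSC 2 and ESC. For Tcstv3, iPSC 3 and iPSC 1 overlapped, as did gPSC 1, gPSC 4 and iPSC 4, and ESC and gPSC 2. For Zscan4c and Tmem92 the arrays of neighbouring lines did not overlap, although 2 arrays are a small sample and several gaps were below 0.1. A wide gap lay below gPSC 3, the line at position 4, in Tcstv1 (0.84), Tcstv3 (0.94) and Tmem92 (0.97).

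The 4 genes varied together across the 10 pluripotent lines. Tcstv1 and Tcstv3 had a Pearson r of 0.989 (Spearman rho 0.976), and r was 0.997 without the 2 lines farthest from the median. They are related genes on chromosome 13, and it is uncertain whether their probes read separate transcripts, so they do not count as independent. Zscan4c correlated at r = 0.917 with Tcstv1, 0.913 with Tcstv3 and 0.886 with Tmem92 (rho 0.867, 0.903 and 0.855), and at 0.813, 0.818 and 0.807 without the 2 farthest lines. Tmem92 correlated at 0.959 with Tcstv1 and 0.961 with Tcstv3 (rho 0.891 and 0.867), and at 0.951 with each without the farthest lines. The values come from the same arrays, and r is given as a description. Since the lines fall into an undetected and a detected set, r among the 4 genes is given over the pluripotent lines only. After group means were removed, r over the 8 iPSC and gPSC lines ran from 0.848 to 0.997. The order of lines was not fully shared: iPSC 3 stood at position 4 in Zscan4c but first in Tcstv1 and Tcstv3, gPSC 1 at position 5 in these 3 genes but 8 in Tmem92, and iPSC 4 at position 8 in Zscan4c but 5 in Tmem92.

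**Figure D3:**
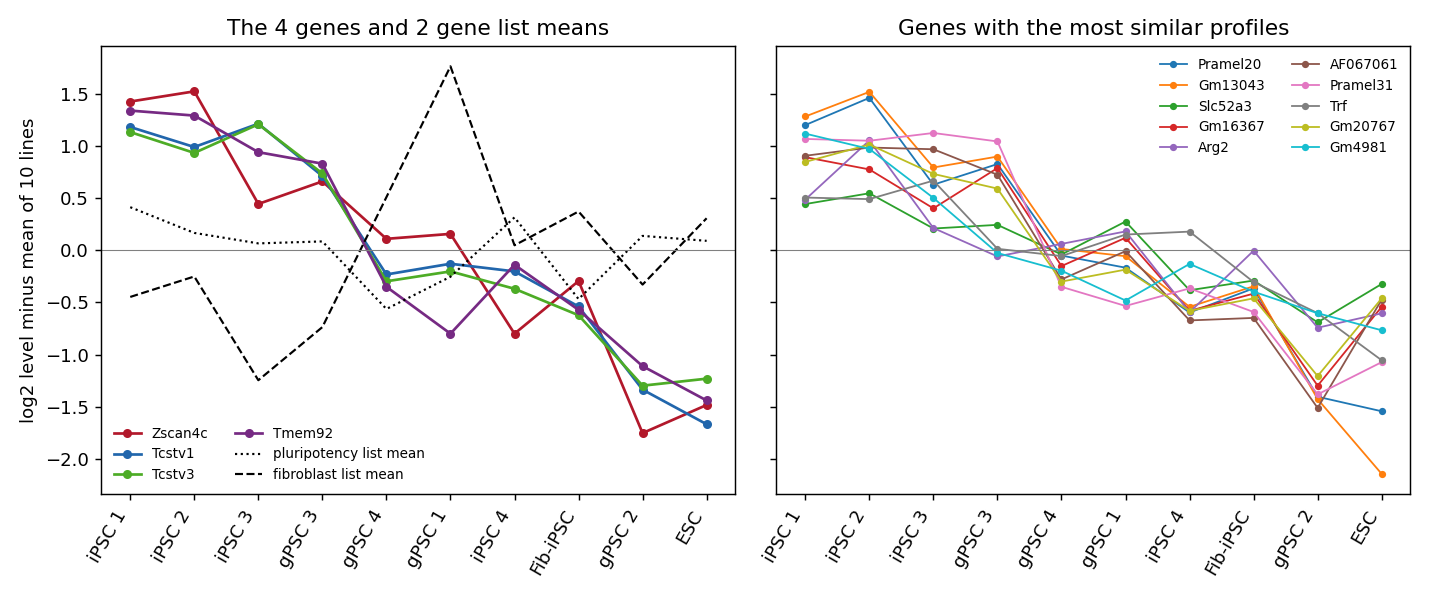
Levels (log2, each centred on its own mean over 10 pluripotent lines, vertical axis) along the lines ordered by the mean of the 4 genes. The left panel shows the 4 genes with the mean of the pluripotency list (dotted) and of the fibroblast list (dashed), and the right panel shows the 10 genes with the most similar profiles: the 4 genes are high in iPSC 1, 2 and 3 and gPSC 3 and low in gPSC 2 and ESC, as are the 10 except that Arg2, Trf and Gm4981 lie near their mean in gPSC 3, whereas the list means follow another course.

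The genes with the most similar profiles were named as the 5 with the highest r to each of the 4 over the 10 pluripotent lines, and the 5 over all 13 lines, which gave 10 further genes: Pramel20, Gm13043, Pramel31, Gm16367, AF067061, Gm20767, Gm4981, Slc52a3, Arg2 and Trf. AF067061 and Trf entered through the 13 lines alone, where the step from undetected to detected lines sets much of r. Pramel20 and Pramel31 belong to the PRAME-like family. Pramel20 was the only gene among the 5 nearest to all 4 genes over these 10 lines, with r = 0.982 to Zscan4c, 0.957 to Tcstv1, 0.951 to Tcstv3 and 0.948 to Tmem92. It was undetected in GSC (4.21 and 4.24) and fibroblast (4.29) and stood at 8.32, 8.58, 7.75 and 6.52 in iPSC 1 to 4. Its level was 6.95, 5.71, 7.95 and 7.07 in gPSC 1 to 4, 5.57 in ESC and 6.75 in Fib-iPSC. Pramel20 therefore had the same high and low lines as Zscan4c, with ESC instead of gPSC 2 as its lowest.

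Gm13043 correlated at r = 0.977 with the mean of the 4 genes and ran from 5.36 in ESC to 9.03 in iPSC 2. Pramel31 correlated at 0.975 and ran from 4.90 in gPSC 2 to 7.41 in iPSC 3. Gm20767 (0.943), Gm16367 (0.926), AF067061 (0.925) and Gm4981 (0.917) followed. Gm20767 and AF067061 lie between Tcstv1 and Tcstv3 on chromosome 13, and which transcripts their probes read was not checked. Of the 10 genes, 8 were undetected in GSC and 10 in fibroblast. The others behaved differently there: Slc52a3, which encodes a riboflavin transporter, and Arg2, the mitochondrial arginase, were detected on all 4 GSC arrays, at mean levels of 5.43 and 5.82. Trf, the gene of transferrin, was undetected in GSC and ran only from 4.90 in ESC to 6.62 in iPSC 3. Of 10656 other genes tested, 15 had r of at least 0.9 with the mean of the 4 and 3 had r of -0.9 or less, with a median of -0.0184.

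A wider list of 50 two-cell-like genes, written from general knowledge, had 26 on the array, of which 16 were detected in at least 1 line and tested. Against GSC, 8 of the 16 rose and none fell in the iPSC lines (median log2 difference 1.39, all genes -0.02), and 8 rose and none fell in the gPSC lines (median 1.07, all genes 0.0065). The genes are the same in both: the 4 above with AF067061, Gm5662, Ddit4l and Pif1. Of all genes tested, 11.1% were called higher and 11.7% lower in iPSC, and 10.2% and 11.5% in gPSC. Since the 4 genes are in the list, they make up 4 of each 8. Of the 16, 10 (the 4 genes among them) were detected on no GSC array, so they passed the detection filter through other lines and could hardly be called lower. The counts and medians of the list are in part set by that filter and support nothing. AF067061 was at least 8.77-fold higher in iPSC (limma adjusted p = 0.00167) and at least 4.98-fold in gPSC (0.00744), where its call ended without GSC 1 and with the line number as a block (largest limma adjusted p = 0.0705). Gm5662 was at least 6.34-fold higher in iPSC (limma adjusted p = 0.00527) and at least 4.67-fold in gPSC (0.0124), where its call ended without background correction, with an offset of 50, without GSC 1 or GSC 2 and with the line number as a block (largest limma adjusted p = 0.0775). Without GSC 1 the count in gPSC was 4 and without GSC 2 it was 5, with Pif1, Gm5662 and Tmem92 lost in both.

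Ddit4l and Pif1 rose without following the 4 genes from line to line. Ddit4l, an inhibitor of mTOR signalling, rose by 2.37 ± 0.30 in iPSC (limma adjusted p = 0.000233) and 2.69 ± 0.30 in gPSC (0.000114), was detected on all GSC arrays, and correlated with the mean of the 4 at r = 0.0715 over 10 lines. Pif1, a DNA helicase, rose by 1.89 ± 0.43 in iPSC (limma adjusted p = 0.00567) and 1.37 ± 0.43 in gPSC (0.028), with r = 0.173; without GSC 2 its call in iPSC ended (limma adjusted p = 0.0507), and its call in gPSC ended in 6 settings (limma adjusted p up to 0.151). Of the remaining 8, which did not pass, 6 were dim: Usp17la, Usp17lc, Zfp352, Ubtfl1 and Tdpoz1 reached at most 5.60, and Tdpoz2 at most 5.87. Their r with the mean of the 4 over 10 lines was 0.913 for Ubtfl1, 0.888 for Tdpoz2, 0.868 for Zfp352, 0.863 for Usp17lc, 0.823 for Usp17la and 0.689 for Tdpoz1. Both arrays detected Usp17la in only 4 lines, Ubtfl1 and Zfp352 in 3 and Usp17lc in 1. The r of Usp17la, Ubtfl1, Zfp352 and Usp17lc thus rests largely on undetected values, and nothing is read from it. Tdpoz1 was detected on both arrays in 7 lines and Tdpoz2 in 10, and their r is given as a description. The last, Nelfa (r = -0.472) and Arg2 (0.832), were also detected in GSC. No probe carried the name of another listed Zscan4 copy or of Dux, so their levels were not analysed here.

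**Figure D4:**
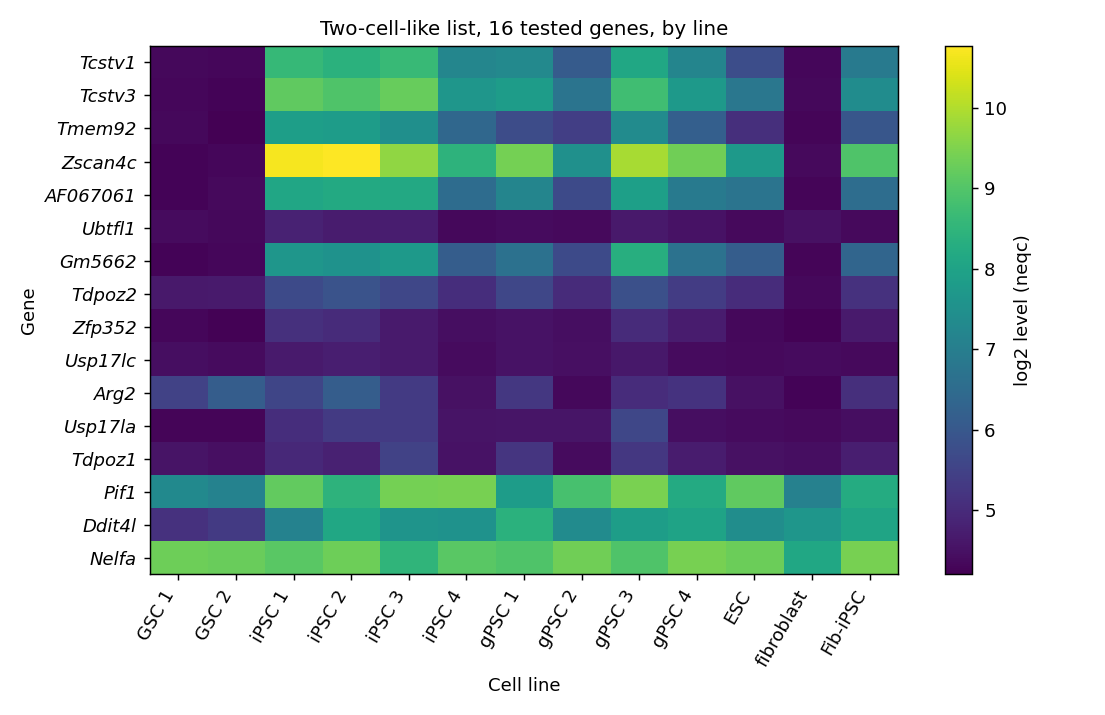
Levels (log2, colour scale) of the 16 tested two-cell-like genes (rows) in the 13 lines (columns). The 4 genes, AF067061 and Gm5662 are detected only in the 10 pluripotent lines, while Ddit4l, Pif1 and Nelfa are detected in all 13 lines.

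Known regulators of the state were compared with GSC in the same way. Of 4 tested activators 2 rose in each of iPSC and gPSC, where 11.1% and 10.2% of all genes were called higher. Dppa4, a nuclear protein that activates Dux with its partner Dppa2, rose by 2.83 ± 0.14 in iPSC and 2.73 ± 0.14 in gPSC (limma adjusted p = 1.01e-06 and 1.3e-06). Tbx3, a T-box transcription factor that is also in the pluripotency list, rose by 2.56 ± 0.31 and 2.23 ± 0.31 (limma adjusted p = 0.000184 and 0.000427). Nelfa (-0.29 and -0.13) and Zscan5b (-0.26 and 0.26) did not pass. Over the 10 pluripotent lines the mean of the 4 activators correlated at only r = 0.099 with the mean of the 4 genes. Among 25 tested repressors, 1 rose and 3 fell in iPSC, and 2 rose and 3 fell in gPSC, where 11.7% and 11.5% of all genes tested were called lower. These counts are near or below the shares over all genes and are no result about the repressors as a list. E2f6, a Polycomb-associated factor, fell by 1.58 and 1.58, Ehmt2, a histone methyltransferase, by 1.45 and 1.39, and Smchd1, a chromatin silencing protein, by 1.28 and 1.12, in iPSC and gPSC (SE 0.14 to 0.26, limma adjusted p 3.21e-05 to 0.00198). The call of Smchd1 in gPSC ended without background correction and with the line number as a block (largest limma adjusted p = 0.0527). Zfp42, also a pluripotency marker, rose by 2.24 and 1.80, and Ncl, which encodes nucleolin, rose by 1.87 in gPSC and stood 0.90 higher in iPSC without passing (limma adjusted p = 0.172). The call of Ncl in gPSC ended without GSC 1 or GSC 2 (limma adjusted p up to 0.0937). The median over the repressors was 0.33 in iPSC and 0.23 in gPSC. None of the 4 activators and 25 repressors passed between iPSC and gPSC. In that comparison 0 of all 10660 genes tested passed, so nothing is read from this count.

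Genes of the oocyte and later cleavage were compared as other early-embryo transcripts. Of 8 tested, 3 rose and 1 fell in iPSC (11.1% and 11.7% of all genes), and 2 rose and none fell in gPSC (10.2% and 11.5% of all genes). Of the 8, 4 were detected on no GSC array, so nothing is read from these counts. Ooep, an oocyte-expressed gene of the subcortical maternal complex, rose by 6.30 ± 0.25 in iPSC and 5.90 ± 0.25 in gPSC (limma adjusted p = 3.32e-07 and 4.88e-07). Obox6, an oocyte homeobox gene, was at least 1.96-fold higher in iPSC and 1.58-fold in gPSC (limma adjusted p = 0.000997 and 0.00459), and Padi6 at least 2.04-fold in iPSC (0.00569). Nlrp14 fell by 1.90 in iPSC (limma adjusted p = 0.00935) and was 1.14 lower in gPSC without passing (0.08). The call of Nlrp14 ended without GSC 1 (limma adjusted p = 0.0801), and those of Obox6 and Padi6 ended with an offset of 50. Over the 10 pluripotent lines the mean of this list correlated at r = 0.245 with the mean of the 4 genes.

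Markers of other cell types were set beside the 4 genes. The mean of the 13 fibroblast and feeder markers ran from 5.12 in iPSC 3 to 8.13 in gPSC 1 among the pluripotent lines, against 9.37 in fibroblast and 5.74 and 6.06 in GSC, and correlated at r = -0.45 with the mean of the 4 genes over the 10 lines. Of the 13 markers, 6 (iPSC 3) to 11 (gPSC 1) were detected in a pluripotent line and 13 in fibroblast. The 4 genes were undetected in fibroblast. For 18 pluripotency genes r was 0.281, for 8 primitive endoderm markers 0.395, for 6 trophoblast markers 0.486 and for 25 repressors -0.508. Against GSC, 1 of 13 fibroblast markers was called higher in each of iPSC and gPSC. Of 8 primitive endoderm markers 2 were called higher in iPSC and 0 in gPSC, and of 6 trophoblast markers 1 in each, with none lower. Of all genes tested, 11.1% were called higher in iPSC and 10.2% in gPSC, and 11.7% and 11.5% lower. No GSC array detected 3 of the 13, 3 of the 8 and 2 of the 6 markers, which could hardly be called lower. Nothing is read from these counts. The fibroblast marker was Acta2, a smooth muscle actin (2.39 and 2.20 higher; limma adjusted p = 0.0071 and 0.0115), whose calls ended without GSC 1, and in gPSC also without GSC 2 and with the line number as a block (largest limma adjusted p 0.0605 and 0.128 over the alternatives). The endoderm markers were Gata6, a transcription factor undetected in GSC (7.31 in iPSC, limma adjusted p = 0.00541), and Sparc (1.96 higher, limma adjusted p = 0.0476), whose call ended in 11 settings. The trophoblast marker was Tfap2c, a transcription factor (3.56 and 3.07 higher; limma adjusted p = 0.000121 and 0.000305), also known from germ cells and early embryos, and its call in gPSC ended with the line number as a block (limma adjusted p = 0.0542). These were named after their values were seen, and the part of these lists in the differences was not tested.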

How the data were processed

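Expression was measured in total RNA of 13 mouse lines on Illumina BeadChips, 2 technical arrays per line, with biotinylated cRNA per the labels' protocols. BeadStudio 3.2 and lumi are named, without their roles, in the submitters' processing notes, and an aligner or genome build does not apply to these values. The deposited table gives, per the file headers, an intensity for each of 25697 probes, neither normalized nor background-subtracted as its medians show. Beside it the deposited detection p-value of each probe is given. The authors also deposited processed log2 values that were quantile normalized, the sorted arrays being equal to within 0.001057, with a background step that is not given in the sources used here; they served as an alternative and correlated with the values used here at r = 0.9937 over detected values.

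Intensities were processed with neqc (limma 3.58.1, R 4.3.3; offset 16, with negative controls taken from the detection p-values), and each line's arrays were averaged, which makes the line the replicate. The 14948 probes that name 1 gene and that 1 or more lines detected on array a and on array b (p under 0.05) entered, and the brightest probe per gene gave 10660 genes. Of 23978 probes that name 1 gene (0 name several, 1719 none), 23962 matched RefSeq names of GRCm38.p6. limma fitted all 13 lines with a mean for each group (7 residual degrees of freedom, 9.29 moderated). Calls needed at least a 2-fold difference and a two-sided p under 0.05 after Benjamini-Hochberg adjustment over all genes. Groups of 1 line are assumed to vary like the others. Where no array of a group detected a gene, folds were taken against the detection floors of its arrays and are lower bounds for this processing. The number of lines limits the precision, and p-values measure the spread between lines. For the 4 genes that spread includes the undetected GSC values (SD 0.02 to 0.09), whose spread is that of background and not of expression. No 2 arrays were identical. The fit was tested on simulated data.

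The 4 genes and all lists were chosen with earlier results of these data known. Named are the 4 genes, the 5 genes most similar to each over 10 and over 13 lines, and up to 6 called genes per list. Alternatives were no background correction, an offset of 50, the authors' values, no detection filter, the detection floor, single arrays, all arrays with the line as a random block (with or without the array letter), every probe fitted alone, each line left out and the line number as a replicate block. Line numbers were not taken as pairs. Deviations from group means correlated at -0.0665, -0.0679, 0.678 and -0.0662 between iPSC and gPSC lines 1 to 4 of the same number. Only for number 3 was the line of the same number the best match. Such correlations cannot show whether lines share an origin.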

Additional observations from a re-analysis of the deposited data

Results flagged for a closer look

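Tcstv1 in the iPSC lines was set apart by iPSC 4, at a log2 level of 7.21 against 8.40 to 8.63 in the other iPSC lines. The gap to the nearest line, as a share of the group's range, was 0.842, above Dixon's 95% critical value for 4 samples. Of 8 gene and group pairs tested (4 genes in the iPSC and the gPSC lines) this was the only one past it. Chance flags about 1 in 20 for each single test, so a flag among 8 is likelier. The 8 are not independent, since the genes varied together. Tcstv3 in the same lines came close at 0.826, and iPSC 4 was the lowest iPSC line in all 4 genes. The part of this line in the comparisons is given by leaving it out.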

How the results depend on the processing

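Of the tests of the 4 genes under the alternatives, 477 kept direction and side of the threshold, 22 lost the call, 5 gained one and none reversed. Called genes against GSC fell to 1202 (iPSC) and 1114 (gPSC) without background correction, and to 1514 (gPSC) with an offset of 50. For iPSC versus gPSC they were 1 with the authors' values, 3 on the a arrays, 3 with the line as a random block and 3 with the array letter added. For iPSC versus ESC they were 10 without background correction, 12 with an offset of 50, 60 with the random block and 53 with the letter added, and 8 (without iPSC 1) to 23 with single lines left out; 2 of the 4 genes were called with the random block and 2 with the letter added. For gPSC versus ESC they were 9, 14, 61 and 57 in the same order, and 17 with the authors' values. For GSC versus ESC, 1100 genes were called without background correction. Of the 4 genes, 2 were called in that comparison, 0 without background correction, 0 with an offset of 50, 0 with no detection filter, 0 with values at the floor, 1 on the a arrays and 0 to 2 with single lines left out. The median r among the 4 genes ran from 0.922 to 0.959 with single lines left out, against 0.938. Their median SD ran from 0.18 (without iPSC 4) to 0.85 over iPSC lines and from 0.545 (without gPSC 2) to 1.04 over gPSC lines, and was 0.578 over gPSC lines without background correction. With the line number as a replicate block 2632 genes (iPSC versus GSC), 1729 (gPSC versus GSC) and 0 (iPSC versus gPSC) were called, with 4, 4 and 0 of the 4 genes. Of the wider list 5 genes were called higher in gPSC than in GSC under this block, and 4 to 8 with single lines left out. The cause of these shifts was not tested. GSC and fibroblast values of the 4 genes are undetected, so folds against them are lower bounds, and only for the background correction used.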
